A study of Mus musculus with 4 samples.

Results

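Interferon-responding T cells were examined among leukocytes of mouse tumours by single-cell RNA sequencing. These cells were chosen by measured values: a filtered cell counted as a T cell when it carried at least 1 unique molecular identifier (UMI, 1 counted RNA molecule) of Cd3e, Cd3d or Cd3g, no Csf1r or Cd79a UMI and fewer than 5 UMIs of S100a8 and S100a9. It counted as interferon-responding, and is called a member here, when Ifit1, Ifit3 and Rsad2 together reached 3 UMIs. The rule found 566 members among 7069 gated T cells and 23011 filtered cells. Filtered cells were those with between 300 and 5000 genes detected and no more than 6% of their UMIs from mitochondrial genes.

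The leukocytes came from tumours of KPC cells, a pancreatic cancer line of the mouse, grown under the skin of male C57BL/6 mice for which no engineered allele is named. Treatment was none, a STING agonist (the cyclic dinucleotide ADU-S100, injected once into the tumour), an agonist of the lymphotoxin-β receptor (LTβR, the antibody 4H8, given repeatedly), or both agonists, called the combination here. By the paper's methods, tumours were taken on the day of resection, days after the last dose. Live CD45+ cells were sorted, tumours of a group were pooled, and each of the 4 groups gave 1 library, so that no value per animal exists. Which of the single-cell experiments described by the authors gave these libraries is not stated in the sources used here. Where 4 values follow each other below, their order is always untreated, STING agonist, LTβR agonist, combination.

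Type I interferons bind the receptor IFNAR on nearly every nucleated cell, and the kinases JAK1 and TYK2 then activate the complex ISGF3, which holds STAT2 and IRF9. ISGF3 binds the interferon-stimulated response element (ISRE) in promoters and switches on antiviral genes, among them the IFIT proteins that bind foreign RNA, viperin (Rsad2), and the ubiquitin-like protein ISG15 with its protease USP18, which also restrains the receptor. T cells that carry such a programme are seen as a recurring state in tumours and in viral infection, while interferon-γ favours guanylate-binding proteins and antigen presentation.

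The promoters of the genes that chose the cells, and of Isg15, carried the ISRE core as letters. The motif searched was GAAANNGAAA on either strand (TTTCNNTTTC on the reverse), in 250 bases before to 50 after the transcription start in RefSeq's sequences for build GRCm38.p6. The windows below are printed 5′ to 3′ on the strand of the gene, with the motif in capitals, because these genes define or lead the state described. The Isg15 window (chr4:156200850-156200921, minus strand) held 3 overlapping matches, the farthest 78 bases before the start. The Ifit1 window (chr19:34640760-34640838, plus strand) and the Ifit3 window (chr19:34583348-34583441, plus strand) each held 2 matches, and the Rsad2 window (chr12:26456538-26456597, minus strand) held 1.
Isg15: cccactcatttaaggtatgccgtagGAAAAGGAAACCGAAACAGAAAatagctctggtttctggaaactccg
Ifit1: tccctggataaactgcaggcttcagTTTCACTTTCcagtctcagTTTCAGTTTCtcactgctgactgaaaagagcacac
Ifit3: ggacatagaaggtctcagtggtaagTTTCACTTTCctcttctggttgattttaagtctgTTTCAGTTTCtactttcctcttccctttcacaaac
Rsad2: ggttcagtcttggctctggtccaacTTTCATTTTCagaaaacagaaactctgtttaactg
The promoter of Usp18 was not among these sequences. The motif occurred in 1079 of 27025 promoters of all genes (3.99%), and a match shows letters and not a bound site. Ifit1 (chr19:34640871-34650009) and Ifit3 (chr19:34583531-34588731) lie close together on the plus strand of chromosome 19, with Ifit2, Ifit3b and Ifit1bl1 between or beside them. Rsad2 (chr12:26442746-26456452) lies next to Cmpk2 on chromosome 12, Isg15 on chromosome 4 (chr4:156199424-156200818) and Usp18 on chromosome 6 (chr6:121245906-121270917), all as protein-coding genes in the GENCODE annotation of GRCm38.

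Members made up 132 of 1825 gated T cells in the untreated library (7.23%, exact 95% interval 6.09 to 8.52) and 120 of 1258 with the STING agonist (9.54%, 7.97 to 11.3). They were 176 of 2056 with the LTβR agonist (8.56%, 7.39 to 9.85) and 138 of 1930 in the combination (7.15%, 6.04 to 8.39). The STING agonist library had the highest share, but its interval overlapped that of the untreated library. Divided by the untreated share, the shares of the STING agonist, LTβR agonist and combination came to 1.32 (0.936 to 1.86), 1.18 (0.867 to 1.62) and 0.989 (0.709 to 1.38), and the combination stood at 0.750 (0.535 to 1.05) of the STING agonist alone. Each interval of a ratio sets opposite bounds of both shares against each other and covers counting error only, and with 1 library per treatment no test between treatments was possible.

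The share depended on how deeply a cell was read, because 3 UMIs are easier to reach in a deep cell. The median member held 6428, 6299, 5414 and 6626 UMIs, against 4966, 5275.5, 4476 and 5147.5 in the other gated T cells. When every cell was thinned at random to 2000 UMIs and the threshold of 3 kept, the share expected over all draws was 2.39% (1.71 to 3.24), 4.30% (3.21 to 5.62), 3.96% (3.13 to 4.95) and 2.67% (1.98 to 3.52) of gated T cells. At equal depth both single agonists therefore lay above untreated and the combination lay near it, with ratios of 1.80 (0.993 to 3.29), 1.66 (0.966 to 2.90) and 1.12 (0.611 to 2.06), each interval holding 1. A single draw gave a ratio of 2.13 (1.17 to 3.93) for the STING agonist and 1.93 (1.11 to 3.41) for the LTβR agonist, so that whether an interval reached 1 depended on the draw. The intervals of the expected shares put an expected number of cells, not a count, into the binomial formula and are approximate. Thinning left out 155, 83, 182 and 120 shallower T cells, of which 2, 2, 4 and 1 were members.

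**Figure D1:**
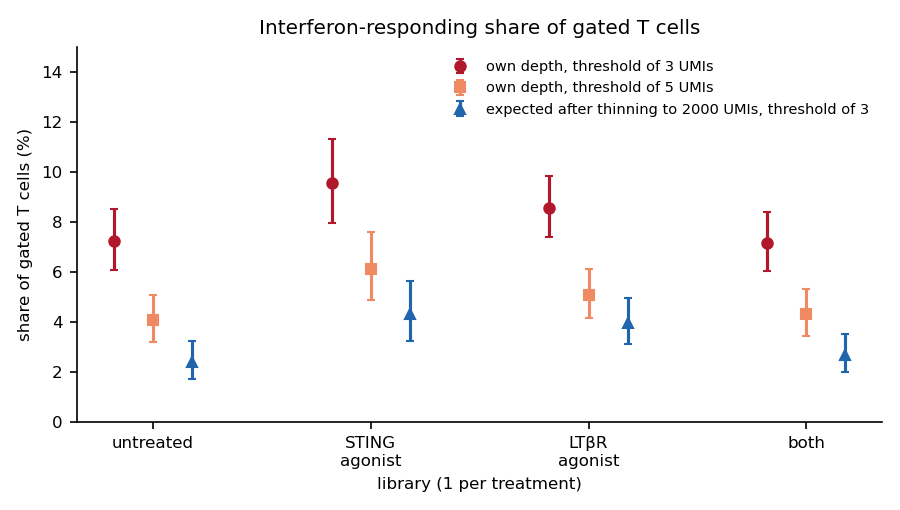
Share of gated T cells that were members (%, vertical axis) in each library, with 95% intervals. The series are own depth at thresholds of 3 and 5 UMIs, and the share expected after thinning to 2000 UMIs. Intervals are exact at own depth and approximate for the expected share. The STING agonist library is highest in each series, at 9.54%, 6.12% and 4.30%, and its intervals overlap those of other libraries.

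The sum of Ifit1, Ifit3 and Rsad2 UMIs fell off smoothly with no gap at the threshold. Of the gated T cells, 5444 had none, 794 had 1 and 265 had 2, and among members 300 (53.0%) had 3 to 5, 160 (28.3%) had 6 to 10 and 106 (18.7%) had more than 10. Just outside the threshold, with 2 UMIs, were 89, 42, 82 and 52 cells, and just inside, with 3 UMIs, were 37, 24, 33 and 38. The median sum in members was 5, 6, 5 and 5 UMIs, and the highest was 30, 41, 40 and 39. Cells with more than 10 UMIs were 18 (0.986% of gated T cells), 28 (2.23%), 29 (1.41%) and 31 (1.61%), which set the STING agonist at 2.26 times untreated (0.955 to 5.47), the LTβR agonist at 1.43 (0.609 to 3.45) and the combination at 1.63 (0.704 to 3.88). A threshold of 2 UMIs brought the libraries to 12.1%, 12.9%, 12.5% and 9.84%, where the STING agonist no longer stood out (ratio 1.06, 0.809 to 1.40).

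The 3 genes of the rule give the levels that the choice of cells fixed, as UMIs per 1000000 UMIs summed over the cells of a library (CPM). Ifit1 reached 264, 414, 410 and 350 CPM in members, against 13, 10.4, 15.8 and 10.5 in the other T cells. Ifit3 stood at 399, 489, 425 and 421 CPM, and Rsad2 at 163, 254, 291 and 230 CPM. Among members the untreated library had the lowest value of each of the 3 genes, and the order of the treated libraries differed between genes. For Ifit3 the untreated interval (362 to 439) overlapped those of the LTβR agonist (388 to 464) and the combination (384 to 461). Members were cut off at 3 UMIs of these same genes and at unequal depth, so no difference between treatments is read from these levels.

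Pooled over libraries, other genes of the interferon programme were higher in each successive bin of the rule sum. In gated T cells the summed level of the 41 other effector genes measured was 5609 CPM at a rule sum of 0, 8059 at 1, 9742 at 2, 12718 at 3 to 5, 16945 at 6 to 10 and 18186 above 10. Genes of ISG15 conjugation went from 268 through 501, 724, 1205 and 2194 to 2950 CPM, and MHC class I presentation genes from 12132 to 15396 CPM. After thinning to 2000 UMIs, a cell held a median of 5, 8, 10, 13, 16 and 17 of the effector genes in these bins. The share of thinned cells with an Isg15 UMI was 12.8%, 28.4%, 41.0%, 61.3%, 81.1% and 87.7%, and with a Usp18 UMI it went from 3.76% to 60.4%. Cells just below the threshold thus carried part of the programme at equal depth, and the threshold divides a gradient. Single libraries departed from this. The effector level went from 19494 at 6 to 10 to 17551 above 10 in the untreated library and from 15137 to 15128 in the combination. MHC class I in the combination went from 15531 at 3 to 5 through 15348 to 14261, and with the LTβR agonist from 15153 at 6 to 10 to 14879. Lower down, MHC class I went from 13273 at 2 to 12526 at 3 to 5 in the untreated library. With the STING agonist it went from 13406 at 0 to 13081 at 1. These bins describe cells ranked by genes of the same pathway, and no test was made on them.

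**Figure D2:**
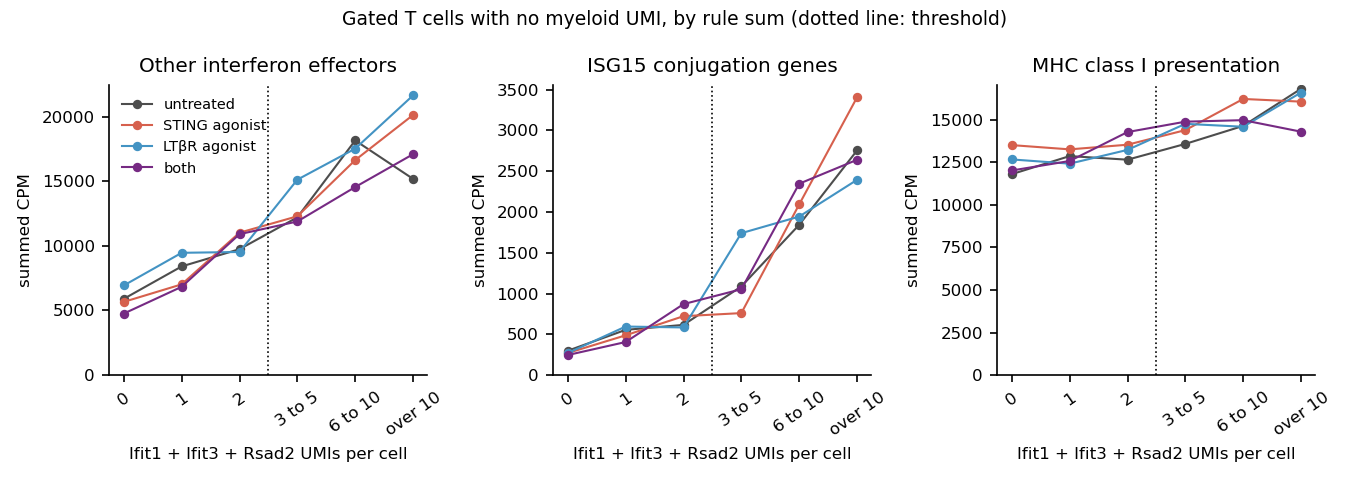
Summed level (CPM, vertical axes) of the other interferon effectors, of ISG15 conjugation genes and of MHC class I presentation genes against the rule sum (UMIs per cell), for gated T cells with no myeloid UMI, 1 line per library, with the threshold as a dotted line. The effector level of these cells, pooled over libraries, goes from 5754 CPM at a sum of 0 to 19001 CPM above 10, and each library's line is higher above the threshold than at 0.

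Isg15 and Usp18, the markers that the rule did not use, were checked in members against the other gated T cells. Isg15 stood at 1036, 1078, 1110 and 944 CPM in members, and at 133, 104, 115 and 93.4 CPM in the other T cells, so that the groups did not overlap. An Isg15 UMI was present in 86.4%, 89.2%, 93.8% and 92.8% of members. Usp18 stood at 206, 281, 219 and 281 CPM in members against 26.9, 29.6, 26.7 and 21.4, and 59.1%, 63.3%, 54.0% and 68.1% of members held a UMI of it. On the log2 scale Isg15 was higher by 3.34 (SE 0.08, edgeR adjusted p = 3.7e-11) and Usp18 by 3.34 (SE 0.12, adjusted p = 1.8e-09), each in 4 of 4 libraries. Both markers that the rule left free were thus high in these cells, while the levels of Ifit1, Ifit3 and Rsad2 were fixed by it.

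The same comparison covered all genes, with UMIs summed per library over members and over the other T cells, the library as a block, and the genes of the rule left out. Of 11085 genes tested, 649 were called higher in members (5.85%) and 134 lower (1.21%) at an adjusted p under 0.05. The count of lower genes was 73, 58 and 71 without the untreated, STING agonist or LTβR agonist library, 71 by DESeq2, and 34 without the library block, where 383 were higher. Since the cells were selected on 3 interferon-induced genes, calls of other interferon-induced genes describe which genes went along with them in the same cells and are not evidence that a response was present. RNA of 7 genes used as myeloid markers (Lyz2, C1qa, C1qb, C1qc, Cd68, Fcer1g and Tyrobp) moved with membership. Summed, they stood at 1169, 479, 828 and 432 CPM in members and at 545, 394, 560 and 330 CPM in the other T cells. List counts are therefore also given among cells with none of these UMIs (299 of 566 members and 3833 of 6503 other T cells). There, 342 of 9887 genes were higher (3.46%) and 108 lower (1.09%). Leaving out these cells did not remove myeloid RNA alone. Cells with a UMI of the NK genes Ncr1 or Klrb1c went from 9.10% to 1.59% of other T cells and from 7.95% to 2.01% of members.

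All 40 effector genes tested were higher in members, with a median log2 difference of 1.97 against -0.01 over all genes tested, and 39 of 39 remained called among cells with no myeloid UMI (median 1.91). The largest difference was that of Ifit3b, a near copy of Ifit3 with which it may share reads, so that its value is uncertain. Ifit3b stood at 97.8, 119, 91.3 and 71.1 CPM in members and 3.91, 2.53, 4.20 and 2.35 CPM in the others, a log2 difference of 4.94 (SE 0.18, adjusted p = 1.8e-09). Cmpk2, a mitochondrial nucleotide kinase whose gene neighbours Rsad2, stood at 78.1, 77.0, 128 and 72.0 CPM against 6.94, 9.12, 9.17 and 4.35 (3.72, SE 0.16, adjusted p = 6.2e-09). For both genes the values of members and of other T cells did not overlap. Ifi204, a member of the AIM2-like family, was higher by 3.42 and Slfn5, a Schlafen family gene, by 3.04. Ifit2, at 214, 145, 165 and 132 CPM in members, was higher by 3.08, and Oasl1, a 2′-5′-oligoadenylate synthetase-like protein, by 3.04. Bst2 (tetherin, which holds budding viruses at the membrane) was higher by 1.69. The smallest difference in the list belonged to Ly6c2, a surface antigen of memory CD8 T cells, at 0.76 (SE 0.07, adjusted p = 1.3e-05).

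Each of the 6 genes of ISG15 conjugation was higher in members, by a median of 1.86 on the log2 scale, and each was called also without myeloid UMIs. Beside Isg15 and Usp18 these are the activating enzyme Uba7 (1.04), the conjugating enzyme Ube2l6 (1.60), and the ligases Herc6 (2.12) and Trim25 (1.55). The substrate and the protease thus differed more than the enzymes that attach it.

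Among 23 genes of interferon signalling and sensing, 12 were higher, none lower and 11 not called, with a median of 0.40. Without myeloid UMIs 10 were higher, Cgas and Socs3 being no longer called. Of the parts of ISGF3, Stat2 was at 164, 119, 158 and 142 CPM in members against 47.6, 39.3, 48.5 and 30.7 in the others, higher by 1.94 on the log2 scale, and Irf9 was higher by 1.02. Irf7, the factor that amplifies interferon production, was at 311, 315, 278 and 209 CPM against 77.5, 72.3, 57.5 and 45.9 (2.26, SE 0.08, adjusted p = 1.8e-09). The cytosolic RNA sensors Ifih1 (MDA5, 2.44), Dhx58 (LGP2, 2.26) and Ddx58 (RIG-I, 1.80) and the Z-nucleic acid sensor Zbp1 (1.98) were higher as well. The receptor chains and kinases were not called: Ifnar1 differed by 0.05 (adjusted p = 0.87), Ifnar2 by 0.31 (0.10), Ifngr1 by 0.05, Jak1 by 0.04 and Tyk2 by 0.23. Tmem173, which encodes STING, differed by 0.40 (adjusted p = 0.072). Genes called higher in this list thus belonged to those that interferon induces. The receptor and kinase genes gave values of 0.04 to 0.31 that did not pass the test. Of these, Ifnar2 and Tyk2 were higher in 4 of 4 libraries.

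**Figure D3:**
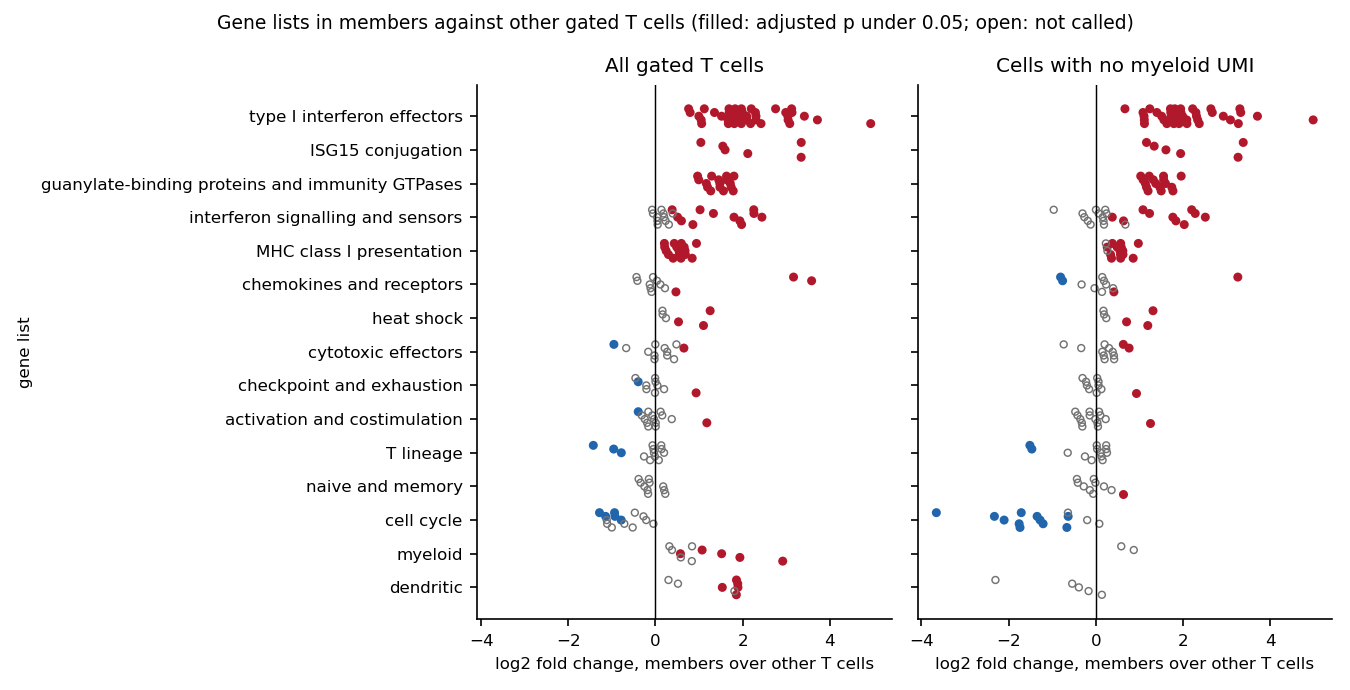
Log2 fold change of members over other gated T cells (horizontal axis) for every tested gene of 15 lists (vertical axis), for all gated T cells and for cells with no myeloid UMI, filled points called at an adjusted p under 0.05. The 40 effector genes lie between 0.76 and 4.94, while the dendritic and myeloid genes called on the left are not called, or not tested, on the right.

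All 16 guanylate-binding proteins and immunity-related GTPases tested, which attack pathogen vacuoles and respond to both types of interferon, were higher, with a median of 1.48 (1.42 without myeloid UMIs, 16 of 16 called). Irgm1 had the largest difference (1.80, SE 0.10, adjusted p = 5.5e-08) and Gbp8 the smallest (0.97). Gbp2 was at 213, 229, 190 and 107 CPM in members against 59.3, 72.5, 55.2 and 47.9 CPM in the others, a log2 difference of 1.74, and its level in members of the combination was the lowest of the 4. All 16 genes of MHC class I presentation were higher too, but by less, with a median of 0.54, and 14 of 16 were called without myeloid UMIs. The nonclassical gene H2-T22 (0.94), the peptide transporter Tap1 (0.68), the immunoproteasome subunit Psmb8 (0.59) and the light chain B2m (0.30) were among them, and the classical heavy chain H2-K1 differed least (0.20, adjusted p = 0.011), a call that was lost without the STING agonist, LTβR agonist or combination library (0.079 to 0.097).

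Of 12 chemokine and receptor genes tested, 3 were higher in members and none lower, and without myeloid UMIs 2 of 11 were higher (Cxcl10, and Cxcr4 at 0.42) and 2 lower (Ccr8 at -0.81 and Xcl1 at -0.76). Cxcl10, a ligand of CXCR3 that draws effector T cells, was at 388, 284, 473 and 183 CPM in members and at 26.6, 24.0, 35.3 and 29.3 CPM in the other T cells, a log2 difference of 3.58 (SE 0.16, adjusted p = 6.9e-09) that was 3.26 without myeloid UMIs. A Cxcl10 UMI occurred in 142 of the 566 members. Cxcl9, another CXCR3 ligand, was called (3.17), but it was seen in 21 members, 1 cell held 28.3% of its UMIs, and it could not be tested without myeloid UMIs. Ccl3, Ccl4, Ccl5 and Cxcr3 differed by -0.06, -0.13, 0.03 and 0.11 and were not called.

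**Figure D4:**
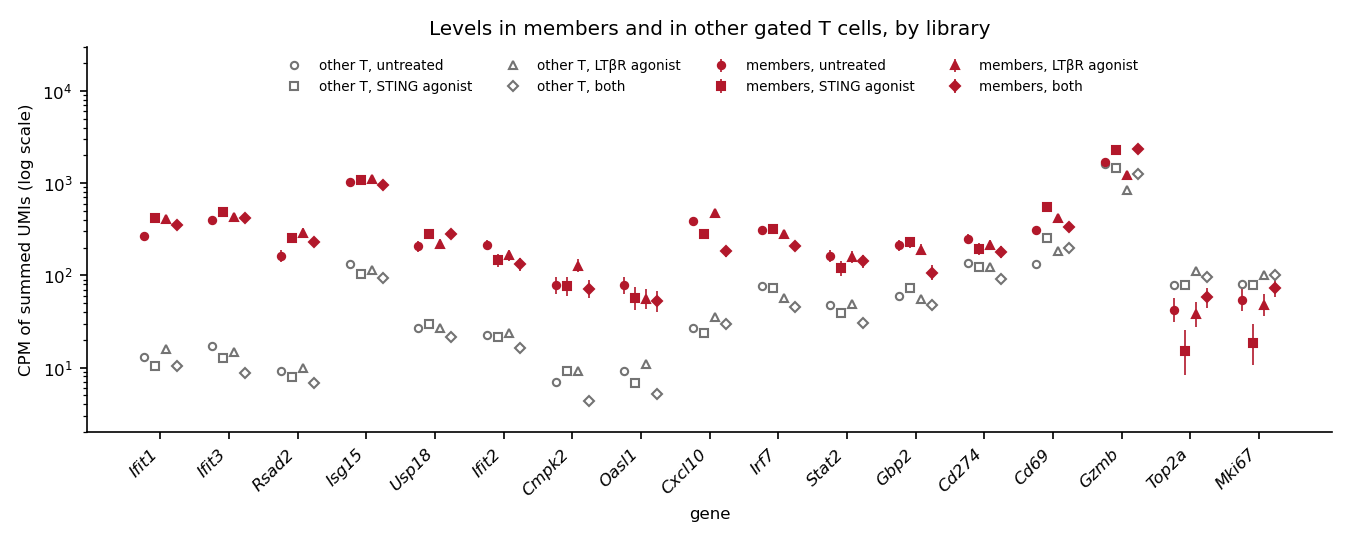
Summed level (CPM, log scale) of 17 named genes in members (filled, exact Poisson 95% intervals) and in other gated T cells (open), with 1 symbol per library. Members lie above the other T cells of the same library for Isg15, Usp18, Cxcl10, Irf7, Stat2 and Cd274, and below them for Top2a and Mki67.

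Pooled over libraries, few markers of T cell state other than the interferon programme were called, though single libraries differed. Of 10 checkpoint and exhaustion genes 1 was higher and 1 lower: Cd274 (PD-L1), itself interferon-induced, was at 250.2, 192, 213 and 179 CPM in members against 136, 123, 123 and 91.4 (log2 difference 0.93, SE 0.08, adjusted p = 4.3e-06), and Tox, a factor of exhausted cells, was lower (-0.40, adjusted p = 0.027). Tox was not called without myeloid UMIs (-0.30, adjusted p = 0.096), nor when the untreated, STING agonist or LTβR agonist library was left out (0.14 to 0.15). Pdcd1 (PD-1), Lag3, Havcr2 (TIM-3) and Ctla4 differed by 0.00, -0.01, -0.21 and 0.04 and were not called. Of 12 cytotoxic genes Gzmb was higher (0.65, SE 0.09, adjusted p = 0.00041) and Gzmf lower (-0.95, adjusted p = 0.024), and Gzmf was no longer called without myeloid UMIs (-0.74, adjusted p = 0.19), by DESeq2 (0.42), or without the untreated (0.074) or the combination library (0.067). Without myeloid UMIs 2 of the 12 were higher, Gzmb (0.77) and Gzmk (0.63, adjusted p = 0.040), and none lower. Prf1 (perforin) and Nkg7 gave -0.02 and -0.00. Of 14 activation genes Cd69, which holds lymphocytes in tissue and is induced by interferon as well as by the antigen receptor, was higher (1.18, SE 0.08, adjusted p = 5.8e-07) and Tnfrsf4 (OX40) was lower (-0.40, adjusted p = 0.0032), a call that was lost without myeloid UMIs (-0.35, adjusted p = 0.18). The receptor-induced genes Nr4a1 and Egr1 differed by -0.19 and 0.16 and were not called. None of 10 naive and memory genes was called, with 1266 genes higher and 771 lower at an unadjusted p under 0.05 over the whole table, and Klf2 alone was called higher without myeloid UMIs (0.64, adjusted p = 0.017). Summed checkpoint and exhaustion genes stood at 2385, 2412, 2105 and 2716 CPM in members against 2886, 2851, 2394 and 2345 in the others. Summed naive and memory genes stood at 1547, 1861, 1452 and 1065 CPM against 1521, 1777, 1680 and 1851. The checkpoint sum was thus higher in members of the combination alone. The naive and memory sum was lower in members with the LTβR agonist and, by more, in the combination. These sums were not tested by library.

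Pooled over libraries, proliferation genes were lower in members. Of 14 cell cycle genes 5 were lower and none higher, with a median of -0.86, and without myeloid UMIs 11 were lower, with a median of -1.31. Top2a, the topoisomerase of dividing cells, was at 42.3, 15.2, 37.9 and 57.6 CPM in members against 79.1, 77.7, 112 and 96.9 CPM in the others (-1.14, SE 0.18, adjusted p = 0.0011), and Mki67 was lower by 0.79 on the log2 scale (adjusted p = 0.016). Pclaf (-1.28), Stmn1 (-0.94) and Tyms (-0.93) were the other genes called. Top2a and Mki67 were lower in members of each of the 4 libraries. Cells with a rule sum above 10 did not all follow. Their summed cell cycle list stood at 447, 358, 392 and 1605 CPM, against 882, 836, 1055 and 976 at a sum of 0. The 31 such cells of the combination thus went the other way. In members 1 cell held 18.4% of the Mki67 UMIs, 18.6% of Top2a, 19.3% of Stmn1 and 26.0% of Pclaf, which was seen in 12 members. Without the LTβR agonist library Mki67 (adjusted p = 0.088), Pclaf (0.081) and Stmn1 (0.053) were not called, and Pclaf was not called by DESeq2 (0.145). At equal depth of 2000 UMIs, 7.18% of members (5.18 to 9.65) and 11.1% of other T cells (10.3 to 11.9) had a Mki67 or Top2a UMI, while at own depth the shares were 20.3% and 22.5%, and 8% of B-gated cells, with a median of 4296 UMIs, had such a UMI.

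The heat-shock genes Hspa1a (1.25, adjusted p = 0.0023), Hspa1b (1.10, adjusted p = 0.046) and Dnajb1 (0.53, adjusted p = 0.038) were called higher, 3 of 6 in that list, each in 3 of 4 libraries, and the same 3 were called without myeloid UMIs. Hspa1a was seen in 42 members, at 58.3, 176, 213 and 44.1 CPM against 31.4, 59.4, 64.4 and 48.4 in the other T cells, so that the combination went the other way. By DESeq2 the adjusted p was 0.078 for Hspa1a, 0.64 for Hspa1b and 0.051 for Dnajb1, and Hspa1b and Dnajb1 were not called without the untreated, without the STING agonist or without the LTβR agonist library (0.19 to 0.29). Tissue dissociation also induces these genes, and its part was not tested.

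Outside the lists, the 8 genes with the largest higher values were Phf11d (3.58), Ifi207 (2.91), Ifi211 (2.85), Ifitm6 (2.75), Tgm2 (2.70), Ifi205 (2.67), Cd300a (2.60) and Slfn4 (2.58). Only Ifi211, an AIM2-like gene at 78.1, 62.9, 87.0 and 58.5 CPM in members against 14.5, 9.40, 12.1 and 7.43, was tested among cells with no myeloid UMI, where it was called (2.55, adjusted p = 4.1e-08). The others were too low there to be tested. The lowest values were those of Cd163l1 (-1.61) and Itgb8 (-1.59), followed by Frmd5 (-1.40), Il1rl1 (-1.34), Gpm6b (-1.03), Prim2 (-0.92), Cdon (-0.92) and Igf1r (-0.91). Cd163l1, a scavenger receptor of γδ T cells, was at 8.47, 27.1, 6.03 and 10.8 CPM against 35, 62.6, 22.9 and 45.5, and Il1rl1 encodes ST2, the IL-33 receptor of tissue regulatory T cells. Of these 8 genes, 6 were called lower also without myeloid UMIs, Prim2 and Cdon being the exceptions. Frmd5, Il1rl1, Prim2 and Cdon lost the call when single libraries were left out (adjusted p of 0.053 to 0.14), and among CD8 cells alone Frmd5, Itgb8, Igf1r, Prim2 and Cdon were not called.

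Of 13 T lineage genes 3 were lower in members, Trdc, Tcrg-C1 and Foxp3, and 10 were not called, and without myeloid UMIs the 2 γδ genes were lower. Trdc, the constant part of the δ chain, was at 16, 21.7, 6.89 and 6.30 CPM against 27.0, 36.9, 38.2 and 41.1 (log2 difference -1.43, SE 0.28, adjusted p = 0.0059) and Tcrg-C1 was lower by 0.96 on that scale (adjusted p = 0.0083). Foxp3, the factor of regulatory T cells, was at 17.9, 35.8, 37.9 and 24.3 CPM against 41.5, 41.8, 79.7 and 50.2 (-0.78, SE 0.16, adjusted p = 0.0069), and it was not called without myeloid UMIs (-0.64, adjusted p = 0.075) or without the LTβR agonist library (0.074). Tcrg-C1 was not called without that library (0.060) or after thinning to 2000 UMIs (0.50), and Trdc after thinning gave 0.052. A Trdc UMI was found in 22 members (3.89%, 2.45 to 5.83) and in 7.14% of other T cells (6.52 to 7.79), against 0.480% of B-gated cells. Foxp3 was found in 39 members (6.89%, 4.95 to 9.30) and in 8.55% of the others, a value within that interval. Ctla4, Il2ra, Icos and Tnfrsf18, which regulatory and activated T cells share, differed by 0.04, -0.16, 0.01 and -0.07 and were not called. The αβ genes Trac, Trbc1 and Trbc2 differed by -0.01, -0.26 and -0.05 and were not called.

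CD8 cells, with a Cd8a or Cd8b1 UMI and no Cd4 UMI, were 286 of the members (50.5%), CD4 cells 137 (24.2%), and 125 (22.1%) had neither. The CD8 share of members was 53.8% (44.9 to 62.5), 44.2% (35.1 to 53.5), 38.6% (31.4 to 46.3) and 68.1% (59.6 to 75.8), highest in the combination. In the other T cells it was 50.6%, 45%, 39.3% and 50.6%. The intervals of members hold the value of the other T cells in 3 libraries, and in the combination members held more CD8 cells, where the intervals (59.6 to 75.8 and 48.3 to 53.0) did not overlap. Of B-gated cells, which should carry neither, 2.88% had a CD8 UMI alone and 0 of 625 a Cd4 UMI alone, where the exact 95% interval reaches 0.588%.

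The CD4 share of members was 19.7% (13.3 to 27.5), 30.8% (22.7 to 39.9), 31.2% (24.5 to 38.7) and 13.8% (8.50 to 20.7) and in the other T cells it was 15.8%, 23%, 23.7% and 19.8%. After thinning to 2000 UMIs, CD8 shares of members were 49.2%, 42.4%, 33.7% and 67.9% and CD4 shares 13.8%, 23.7%, 24.4% and 9.49%, with the libraries in the same order as before. Seen from the lineages, members made up 8.84% (5.86 to 12.7), 12.4% (8.86 to 16.7), 11% (8.38 to 14) and 5.08% (3.09 to 7.82) of CD4 cells. Of CD8 cells they made up 7.65%, 9.38%, 8.43% and 9.39%, so that the combination was lowest for CD4 cells and not for CD8 cells. At equal depth the CD4 values were 2.91%, 7.58%, 7.30% and 2.20% and the CD8 values 2.26%, 3.47%, 2.82% and 3.53%. No test between libraries was possible, and the intervals cover counting error only.

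**Figure D5:**
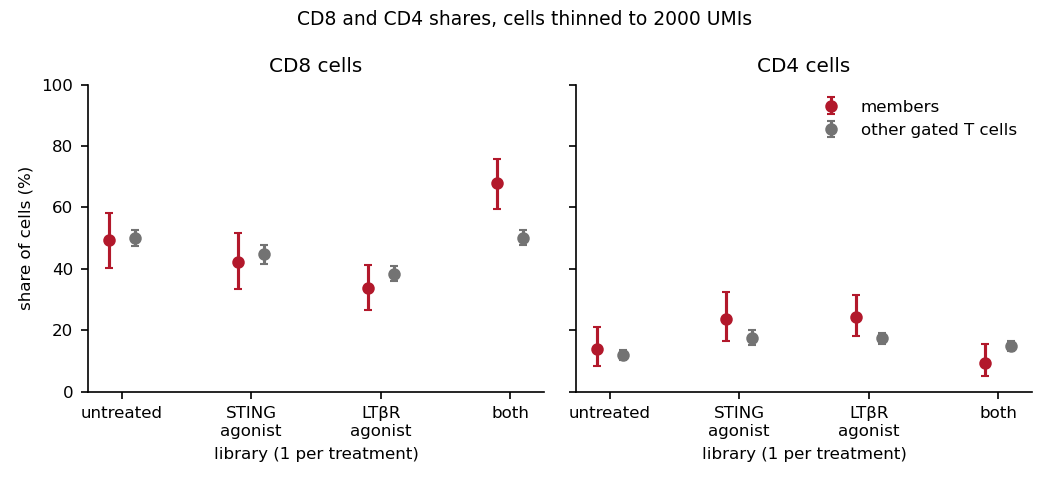
CD8 and CD4 shares (%, vertical axes) of members and of other gated T cells in each library after thinning to 2000 UMIs, with exact 95% intervals. In the combination 67.9% of members are CD8 and 9.49% are CD4, against 50.1% and 14.8% of the other T cells.

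The threshold of 3 UMIs was met by other leukocytes at different rates. With all cells thinned to 2000 UMIs, it was met by 3.45% of T cells as a mean of 4 libraries (range 2.16 to 4.6), by 1.58% of NK-gated cells (1.06 to 2.55), by 0.701% of B-gated cells (0 to 2.56), by 12.8% of cells gated as macrophages or monocytes (11.6 to 13.7) and by 27.8% of neutrophil-gated cells (21 to 37.5). T cells lay above the NK and B gates and below the myeloid gates in these means. In the untreated library the B value (2.56%) lay above that of T cells (2.16%), but it was 1 of 39 cells. The highest neutrophil value, 37.5% in the combination, was 6 of 16 cells. The single NK values were 1.06%, 1.66%, 2.55% and 1.06%, each below the T cells of the same library, though the intervals of both overlapped.

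Members with myeloid RNA were not spread evenly over the libraries. At least 10 UMIs of the 7 myeloid genes were found in 16.7%, 7.50%, 9.09% and 7.97% of members, and genes of the dendritic list, such as Cd74 and H2-Aa, stood at 5921, 1942, 2332 and 2465 CPM in members against 1750, 466, 881 and 724 in the other T cells. Of 10 tested genes of the myeloid list 5 were called higher in members, among them Lyz2 (1.94), and of 8 dendritic genes 5, among them H2-Aa (1.89). Among cells with no myeloid UMI, edgeR called none of the 2 myeloid and 5 dendritic genes tested (adjusted p under 0.05). These cells were chosen for having no UMI of 7 genes of the myeloid list, so the outcome for that list was largely fixed. The 2 myeloid genes left kept their log2 differences: Itgam gave 0.87 (1.07 in all gated T cells) and Apoe 0.59 (0.58). Apoe was called in neither set. The dendritic list stood at 137, 105, 135 and 145 CPM in members against 227, 123, 200.2 and 196 in the other T cells. Of genes of all kinds, 819 were higher there at an unadjusted p under 0.05. B cell genes Ms4a1 and Pax5 had no UMI in members, none of 4 NK genes and 2 tumour or stroma genes tested was called, and Hba-a1, a haemoglobin gene, had no UMI. Of the neutrophil list, Il1r2 was called higher (0.54, adjusted p = 0.0019) and not without myeloid UMIs. A doublet score of 0.2 or more was given to 14 members (4, 1, 6 and 3 by library). The part of free or attached myeloid RNA in the member count was not tested, but the share without any myeloid UMI was 5.99%, 9.41%, 7.87% and 6.19% in the 4 libraries.

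Levels in members were compared between libraries for all genes with at least 30 UMIs in members of 1 of the 2 libraries, which was met by 5089, 5409 and 5284 genes for the STING agonist, the LTβR agonist and the combination against untreated. The values are log2 ratios of CPM plus 50, with no test. The lowest ratios belonged to genes of antigen-presenting cells: Cst3 (-2.12 with the STING agonist and -2.57 with the LTβR agonist), H2-Eb1 (-1.76 and -1.36), H2-Aa (-1.54 with the STING agonist), Ccr7 (-1.97 with the LTβR agonist), and, in the combination, Tyrobp (-1.37), Cd74 (-1.33) and Fcer1g (-1.32). In the other T cells Cst3 gave -1.66 and -0.76, H2-Eb1 -1.31 and -0.85, H2-Aa -1.59 and Ccr7 -0.41. Tyrobp, Cd74 and Fcer1g gave -0.88, -1.12 and -0.47 there, so these genes were lower than untreated outside members too. Untreated members also had the highest myeloid RNA, and its part in these ratios was not tested. When cells with a myeloid UMI were left out, Cst3 was at -0.20 and 0.04, H2-Eb1 at -0.42 and -0.17, H2-Aa at -0.16, Ccr7 at -0.78 and Cd74 at 0.53, while Tyrobp and Fcer1g, which belong to the myeloid genes left out, gave 0. Ifitm1, an antiviral membrane protein, was at 1481 CPM untreated and 449, 452 and 498 CPM under treatment, with ratios of -1.62, -1.61 and -1.48 that were -1.14, -3.20 and -0.91 without myeloid UMIs. In the other T cells the Ifitm1 ratios were -0.20, -0.61 and -0.94. An Ifitm1 UMI was found in 34 untreated members.

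The highest ratios with the STING agonist were those of Hspa1a (1.06), Gzmf (1.03), Hspa1b (0.99) and Klf2 (0.95), a factor of circulating T cells. With the LTβR agonist they were Thbs1 (1.59) and Fn1 (1.53), which are matrix proteins, Hspa1a (1.28) and Phlda1 (1.10), and without myeloid UMIs Thbs1 was at -0.08, Fn1 at 1.14, Hspa1a at 1.73 and Phlda1 at 0.91. In the combination they were Myo16 (0.88), the growth factor Areg (0.85), Pdcd1 (0.78) and Camk2n1 (0.77). In the other T cells the ratios of the STING agonist genes were 0.43, 0.99, 0.66 and 0.60 in this order. Those of the LTβR agonist genes were -0.15, 0.26, 0.49 and 0.23, and those of the combination genes 0.04, 0.88, 0.02 and 0.36. With all members counted, Gzmf and Areg thus differed about as much outside members. Without myeloid UMIs the STING agonist genes gave 1.01, 2.52, 1.91 and 1.01 in members, in the same order. The combination genes gave 0.70, 2.31, 0.50 and 0.50. Several of the ratios in members rest on few cells: 1 cell held 45.4% of the Thbs1 UMIs, 37.4% of Fn1, 31.4% of Areg and 28.4% of Hspa1a with the STING agonist, and 31.6% of Ccr7 in untreated members. Pdcd1 was at 246, 381, 228 and 459 CPM in members, while in the other T cells the ratio of the combination to untreated was 0.02. Among members the combination thus had the highest Pdcd1 level, together with the highest CD8 share. Ratios of the interferon markers were smaller: Isg15 gave 0.06 (-0.11 to 0.22), 0.10 (-0.06 to 0.25) and -0.13 (-0.29 to 0.04), and Usp18 0.37 (0.06 to 0.68), 0.07 (-0.23 to 0.37) and 0.37 (0.08 to 0.66). The intervals of Isg15 all hold 0, and for Usp18 those of the STING agonist and the combination do not, for counting error only.

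Type I interferon transcripts were rare in these cells, which were taken days after the last dose. The paper reports interferon-β in tumours within hours of the STING agonist injection, a time that these libraries do not cover. Ifnb1 had 9, 1, 21 and 15 UMIs among all filtered cells, found in 5, 1, 5 and 3 cells, and 1 member in the combination held 2 of them. The 14 Ifna genes had 0, 0, 6 and 1 UMIs, none in members. Ifng, the type II interferon, was read in many members: it was at 260, 241, 216 and 380 CPM in members and 302, 346, 171 and 193 CPM in the other T cells, a log2 difference of 0.27 (adjusted p = 0.47) with 2 libraries higher and 2 lower.

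Members lay near each other, and less so when interferon genes were left out. Among the 20 nearest neighbours of a member, taken over gated T cells in 30 principal components, 31.6% were members, against 3.56% for other T cells and 8.01% of all gated T cells. Without the genes of the interferon lists, which left 1867 of 1891 variable genes, the values were 16.3% and 6.67%. Without every gene called higher in members, which left 1697, they were 13.5% and 8.95%. Members also held more UMIs and more myeloid RNA than the other T cells, and the part of these in the shares was not tested. The last set was chosen on the same cells, so these shares are a description. Members carried many receptor segments: 18 to 21 distinct Trbv segments were seen per library, and the leading segment was Trbv3 in 16.5% of untreated members with a Trbv UMI, Trbv19 in 15% with the STING agonist, Trbv14 in 10.7% with the LTβR agonist and Trbv19 in 18.8% in the combination. The other T cells, which are more numerous, showed 22 segments per library. Theirs were led by Trbv3 (20.9%), Trbv19 (14.6%), Trbv1 (9.95%) and Trbv13-1 (16.4%), so the untreated and STING agonist leaders were shared.

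The ISRE core was read in the promoters of whole groups as well. It was present in 351 of 8678 tested genes with a promoter sequence (4.04%), in 97 of 509 genes called higher (19.1%) and in 1 of 93 called lower (1.08%). Without myeloid UMIs the shares were 71 of 276 (25.7%) and 2 of 83 (2.41%). It was present in 17 of 34 effectors (50%), 9 of 10 guanylate-binding proteins and GTPases (90%), 4 of 14 MHC class I presentation genes (28.6%) and 0 of 13 cell cycle genes. The groups with the larger log2 differences thus held the motif more often than the table as a whole, except that the GTPases held it more often than the effectors, and no test was made of this.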

How the data were processed

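The authors made 5′ libraries with the 10x Genomics chemistry and deposited raw UMI counts per gene and barcode from Cell Ranger 7.1.0 on mm10, per the labels and the file headers. The 4 libraries share 1 matrix and are told apart by the barcode number that the labels assign. Libraries held 3955 to 7824 barcodes and 32529174 to 60770280 UMIs. Of 566 members, 16 had a barcode that also occurs in another library, and none was a member there. Among barcodes over the mitochondrial limit, 2 of 176 met the rule.

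The members and the gene lists were chosen with earlier results of these data known. Named genes were the markers, the highest and lowest called genes of each list and any that defines it, the 8 highest and 8 lowest called genes outside the lists with at least 50 UMIs in both groups, and the 4 highest and lowest ratios between libraries, without V(D)J, mitochondrial, ribosomal protein and predicted genes. Further list genes were named after their values were seen.

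Summed counts of members and other gated T cells were compared with edgeR 4.0.16 (TMM, quasi-likelihood, filterByExpr, library as a block, Benjamini-Hochberg over all genes tested), without the 10 rule genes, and the code was tested on simulated data. DESeq2 1.42.0 was an alternative. Each library gives 1 pair, so the block comes from the design, and p-values measure the spread between these 4 libraries only. Shares have exact (Clopper-Pearson) and CPM exact Poisson 95% intervals, for counting error only. For shares expected over all draws the same formula took an expected number of cells, so those intervals are approximate. Doublets were kept, and Scrublet scores came from scanpy 1.11.5. Promoters are RefSeq's (GRCm38.p6), coordinates GENCODE's (GRCm38). Some genes of the lists are not reported here by name.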

Additional observations from a re-analysis of the deposited data

Results flagged for a closer look

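In each of 78 items (named genes and summed lists) the log2 difference of members minus other gated T cells, at CPM plus 50, was compared across the 4 libraries, and 8 had 1 library far from the other 3 by Dixon's criterion, which chance meets in about 1 of 20 groups.

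Of the ISG15 conjugation genes, Uba7 gave 0.72 in the LTβR agonist library against 0.35 to 0.37 in the other libraries, and Trim25 gave 0.71 in the untreated library against 1.00 to 1.05. The summed ISG15 conjugation list gave 2.16 in the untreated library against 2.41 to 2.44. Cmpk2 gave 1.58 in the LTβR agonist library against 1.10 to 1.17, and Ifi205 gave 1.25 in the untreated library against 0.63 to 0.72. In the combination, Gbp2 gave 0.68 against 1.19 to 1.26, Cd69 gave 0.63 against 0.97 to 1.01, and Dnajb1 gave -0.18 against 0.38 to 0.49, the only one of these values below 0. The untreated members, where Ifi205 stood apart, also had the highest myeloid RNA (1169 CPM), and the part of that RNA was not tested.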

How the results depend on the processing

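With 1 library per treatment the spread between tumours is unknown, single UMIs decide membership in shallow cells, and depth limits every share. The shares of members, in the order of the 4 libraries used above, were 12.1%, 12.9%, 12.5% and 9.84% at a threshold of 2 UMIs, 4.05%, 6.12%, 5.06% and 4.30% at 5 UMIs, 2.16%, 4.6%, 4.16% and 2.87% in 1 draw thinned to 2000 UMIs, 0.888%, 2.17%, 1.73% and 1.10% in 1 draw thinned to 1000, and 1.95%, 3.2%, 2.46% and 2.59% of all filtered cells. The shares expected over all draws, an alternative chosen after seeing the data, were 2.39%, 4.30%, 3.96% and 2.67% at 2000 UMIs and 0.814%, 1.93%, 1.62% and 1.12% at 1000. Without myeloid UMIs the untreated share was 5.99%. The ratio of the STING agonist to untreated moved to 2.13 (2000) and 2.44 (1000), with 2.37 expected at 1000, and that of the LTβR agonist moved to 1.93 and 1.95, with 1.66 and 1.996 expected. The combination stood at 0.508 of the STING agonist at 1000. With all filtered cells as the denominator the STING agonist's ratio was 1.65 (1.16 to 2.34). The combination against untreated, 0.989 at own depth, was 0.813 at 2 UMIs, 1.06 at 5, 1.33 and 1.24 thinned to 2000 and 1000, 1.33 of all filtered cells and 1.03 without myeloid UMIs, and against the LTβR agonist it turned from 0.835 to 1.05 of all filtered cells.

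The CD4 share was 28.3% of untreated members without myeloid UMIs and 24.4% of LTβR agonist members after thinning to 2000. The threshold was met by 3.64% of the NK gate and 33.1% of the macrophage or monocyte gate at own depth, and by 0.781%, 7.04% and 17.0% of the NK, macrophage or monocyte and neutrophil gates at 1000 UMIs.

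No paired analysis was possible between treatments because each has 1 library. Members and other T cells are paired by library, and without that replicate block 383 genes were higher and 34 lower. Calls lost in that fit include Gzmb (adjusted p = 0.17), Tox (0.28), Tnfrsf4 (0.25), Mki67 (0.17), Foxp3 (0.20), Hspa1a (0.10) and B2m (0.098), while Isg15, Usp18, Top2a and Trdc kept theirs. Genes higher were 420 after thinning to 2000 and 342 without myeloid UMIs. Genes lower were 71 with DESeq2 and 442 with no filter on low counts. Leaving out 1 library gave 445 to 566 higher and 58 to 122 lower genes, with 73, 58, 71 and 122 lower without each library in that order, where fewer libraries were fitted. The causes of the other changes were not tested.

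Of 812 recomputed log2 differences of 64 named genes, 718 kept direction and side of the threshold, 85 kept direction and missed the threshold, and 9 changed sign, all of genes that were not called. Pdcd1 (0.00) gave -0.0032 with DESeq2, -0.063 with no filter, -0.16 to 0.13 with 1 library left out (below 0 without the LTβR agonist and without the combination library), -0.016 against T cells with no rule UMI, -0.17 after thinning and -0.016 in CD8 cells. Prf1 (-0.02) gave -0.090 to 0.045 with 1 library left out (above 0 without the untreated library) and 0.18 without myeloid UMIs. Of 24 named ratios between libraries, 5 stayed within their counting interval and 19 kept their sign without myeloid UMIs. With a pseudocount of 10 CPM, means per cell and a threshold of 5 UMIs, 17, 13 and 14 stayed within it, and all 24 kept their sign.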
